A study of Mus musculus with 8 samples.

Results

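Adhesion G protein-coupled receptors are the family of G protein-coupled membrane receptors with long extracellular parts that bear adhesion domains. The mouse genes were gathered by symbol: all RefSeq genes named Adgr with a subfamily letter and a number, together with Celsr1, Celsr2 and Celsr3. This gave 30 genes in subfamilies A to G, L and V. Of these, 29 had at least 1 named probe among the 20660 genes that could be named, and Adgrg4 had none. No level was used to take a gene into the family. The family itself, however, was selected on earlier results from the same arrays, in which Adgrf1 and Adgrb3 stood among the genes with the largest rises. The values of these 2 genes are therefore given as a description, and no p-value is given for them.

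RNA came from mouse embryos made by in vitro fertilisation, cultured in KSOM medium and collected as morulae at embryonic day 3.0. In the P150KD group (5 arrays) 1-cell embryos had received P150 siRNA; P150 is the product of Chaf1a and the largest part of CAF-1, a chaperone that deposits histones on new DNA. In the siControl group (3 arrays) they had received a control siRNA, so all embryos were injected. Each array carried amplified RNA of 10 pooled embryos. Strain and sex are not given in the labels, nor is it said whether replicates came from separate fertilisations, so the p-values measure only the spread between these arrays. Because whole embryos were pooled, fewer cells with a transcript and less transcript per cell cannot be told apart.

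Adhesion receptors share a GAIN domain next to the membrane, at which many of them cut themselves during maturation. The extracellular fragment stays attached to the part in the membrane, and its release can expose a tethered peptide that activates the receptor. Their ligands are mostly proteins of other cells or of the matrix, and they signal through G proteins. Celsr proteins, which carry cadherin repeats, act mainly in planar cell polarity. In preimplantation embryos, the morula is the stage at which blastomeres compact and adhere before the blastocyst cavity forms.

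The promoters of Adgrf1 and Adgrb3 are shown because these were the members whose signal went from background to a high level. Each run is the 250 bases before the RefSeq start of the gene, read 5′ to 3′ on the gene's strand, with CG dinucleotides in capitals. The Adgrf1 window is chr17:43270097-43270346 on the plus strand and the Adgrb3 window is chr1:25829708-25829957 on the minus strand, both of build GRCm38.p6.
Adgrf1: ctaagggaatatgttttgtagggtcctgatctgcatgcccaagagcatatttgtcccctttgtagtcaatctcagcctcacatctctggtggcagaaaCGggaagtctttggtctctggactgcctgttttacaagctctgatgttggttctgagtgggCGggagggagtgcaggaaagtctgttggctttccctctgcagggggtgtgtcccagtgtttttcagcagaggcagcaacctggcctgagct
Adgrb3: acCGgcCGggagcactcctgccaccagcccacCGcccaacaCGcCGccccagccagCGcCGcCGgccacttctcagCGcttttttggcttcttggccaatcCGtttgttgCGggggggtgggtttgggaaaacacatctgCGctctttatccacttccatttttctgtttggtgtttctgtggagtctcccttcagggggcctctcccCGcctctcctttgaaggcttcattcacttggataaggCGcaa
The pair differed in CG content. Adgrf1 had 2 CG dinucleotides, a count above that of 18.8% of the 32851 RefSeq promoter windows of the same length. Adgrb3 had 14, above 70.6% of them, and the median over all windows was 6 with quartiles of 2 and 16. The letters TATAAA, searched on both strands, were in neither window, against 12.4% of all windows. Of the 30 members, 22 matched the RefSeq promoter table with 26 windows, whose median CG count was 9, and 2 of these windows (Adgrl2 and 1 of 3 for Adgrl3) held TATAAA. Among members measured on the arrays, Adgrg7 had 1 CG, Adgrg1 had 4 in each of its windows, Adgrv1 had 11, and Celsr2 and Adgrg6 each had 32. Any link between CG content and signal was not tested.

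Across the arrays, between 50.1% and 55.9% of spots were well above background and no spot was saturated. Signals are given as log2 values relative to each array's 75th percentile, so a value of 0 is the brightness that 75% of that array's probes do not exceed, and probes of different genes are not compared with each other. With 8 arrays in all, their number limits the precision. The siRNA target Chaf1a read 2.25 ± 0.16 (SD, n = 3) in siControl and -0.62 ± 0.85 (SD, n = 5) in P150KD, a difference of -2.88 (SE 0.48, limma adjusted p = 0.0107) with no overlap of the groups. All 15 morula markers with a probe, among them Pou5f1, Nanog and Cdh1, were above background on every array. Of these, 0 rose and 3 fell, beside 6.65% and 10.5% of all tested genes. The differences were -3.09 for Krt18 (limma adjusted p = 0.00296), -0.87 for Tead4 (0.0243) and -1.75 for Gata3 (0.0457). Under quantile normalization 0 rose and 1 fell, and under housekeeping scaling 3 rose and 1 fell. The summed linear signal of the 15 markers, in units of the array's 75th percentile, was 1004 to 1076 in siControl and 635 to 899 in P150KD. The median difference (P150KD minus siControl) of all 14601 tested genes was -0.24, and it was -0.12 after quantile normalization, -0.30 after scaling to the median and 0.51 after scaling to housekeeping genes. The split of calls over all probes moved with the scaling, from 1907 higher and 2324 lower to 2073 and 1487 with quantile normalization and to 6414 and 422 with housekeeping scaling. Of the 16 housekeeping genes used, 0 rose and 6 fell in the main fit, beside 6.65% and 10.5% of all tested genes. Their median difference was -0.42. Scaling to them therefore moves every difference upward, and a fall lost under it was not judged against an unchanged reference.

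The family was divided between members present on all arrays and members at background. Well above background on all 8 arrays were 10 members: Adgra2, Adgra3, Adgrb1, Adgrb2, Celsr1, Celsr2, Adgre5, Adgrf3, Adgrg1 and Adgrg3. A further 8 were above background on 3 to 7 arrays: Adgrb3, Adgrf1, Adgrv1, Celsr3, Adgre1, Adgrl1, Adgrg6 and Adgrg7. These 18 genes passed the filter of at least 3 of 8 arrays, which is 62.1% of the members with a probe, against 70.7% of all named genes. Adgrf1 and Adgrb3 passed it through the P150KD arrays alone. Adgrv1, above background on 5 P150KD arrays and 1 control array, also met it through the P150KD arrays. Just inside the filter lay Adgrg6 and Adgrg7, with 3 arrays each, and just outside lay Adgrg5, with 2. The number of members above background was 16, 16 and 13 on the siControl arrays and 16, 18, 16, 15 and 18 on the P150KD arrays, so the groups overlapped in this count.

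**Figure D1:**
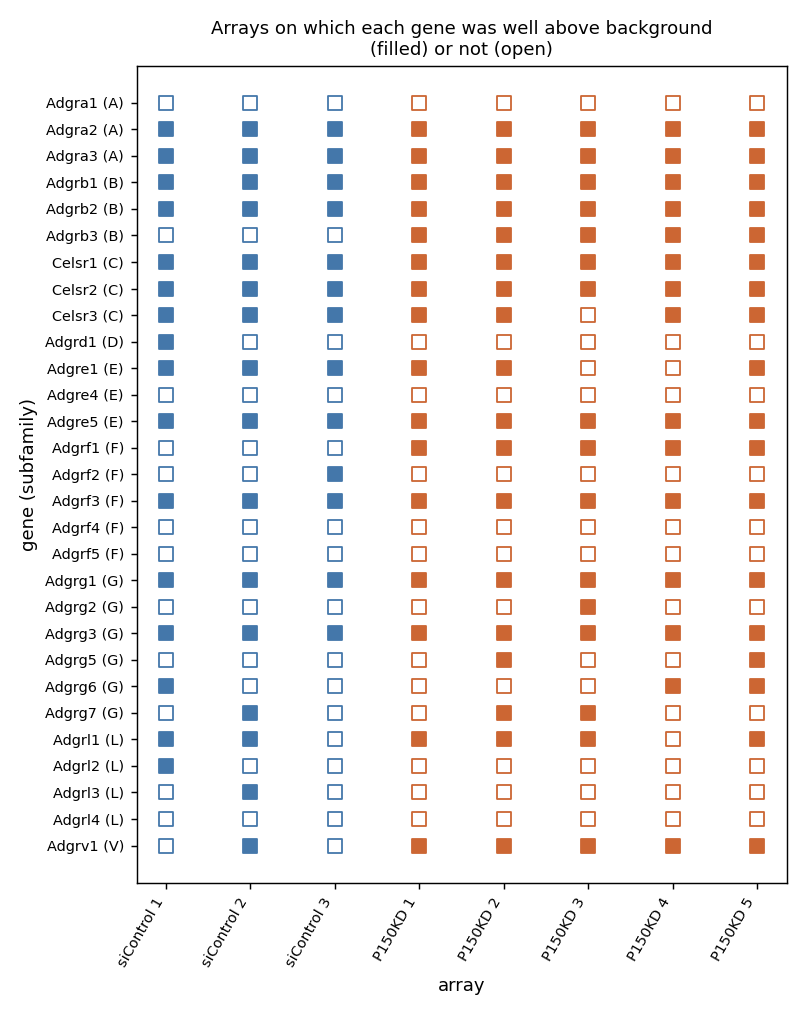
Each row is 1 of the 29 adhesion receptor genes with a probe and each column 1 array; a filled square means that the probe standing for the gene was well above background. Adgrf1 and Adgrb3 are the rows that are open on all 3 siControl arrays and filled on all 5 P150KD arrays, and 5 rows are open throughout.

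The members at background on all 8 arrays were Adgra1, Adgre4, Adgrf4, Adgrf5 and Adgrl4; Adgrl4 is known from endothelium and Adgrf5 from the lung, where it controls the surfactant pool. Another 6 members were seen on 1 or 2 arrays only. Adgrd1 read -2.75 on siControl 1, Adgrl2 -2.21 on siControl 1, Adgrl3 -4.27 on siControl 2 and Adgrf2 -4.56 on siControl 3. Adgrg2, a receptor of the epididymal duct, read -2.46 on P150KD 3. Adgrg5 read -3.41 on P150KD 2 and -2.41 on P150KD 5. No array showed more than 2 of these 6 genes, and none of the 6 was tested.

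In the fit over all probes, 2 of the 18 members lay past the threshold as higher in P150KD (limma adjusted p under 0.05) and 0 as lower, beside 6.65% of all tested genes that rose and 10.5% that fell. The 2 were Adgrf1 and Adgrb3, whose place there was fixed by the choice of the family and by a filter that they passed through P150KD alone. Nothing is read from these shares. Of the other 16 members, 0 passed in either direction, with adjusted p-values from 0.0515 to 0.995, and 2 had an unadjusted p under 0.05, Adgrv1 and Celsr1. The difference was positive in 6 of these 16 and negative in 10, a split that became 12 and 4 under housekeeping scaling and 9 and 7 in the fit blocked on the slide column. Their median difference was -0.26, and that of all 18 was -0.10, beside -0.24 for all tested genes. The groups did not overlap in 4 members (Adgrf1, Adgrb3, Celsr1 and Celsr2), beside 32.0% of all tested genes.

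**Figure D2:**
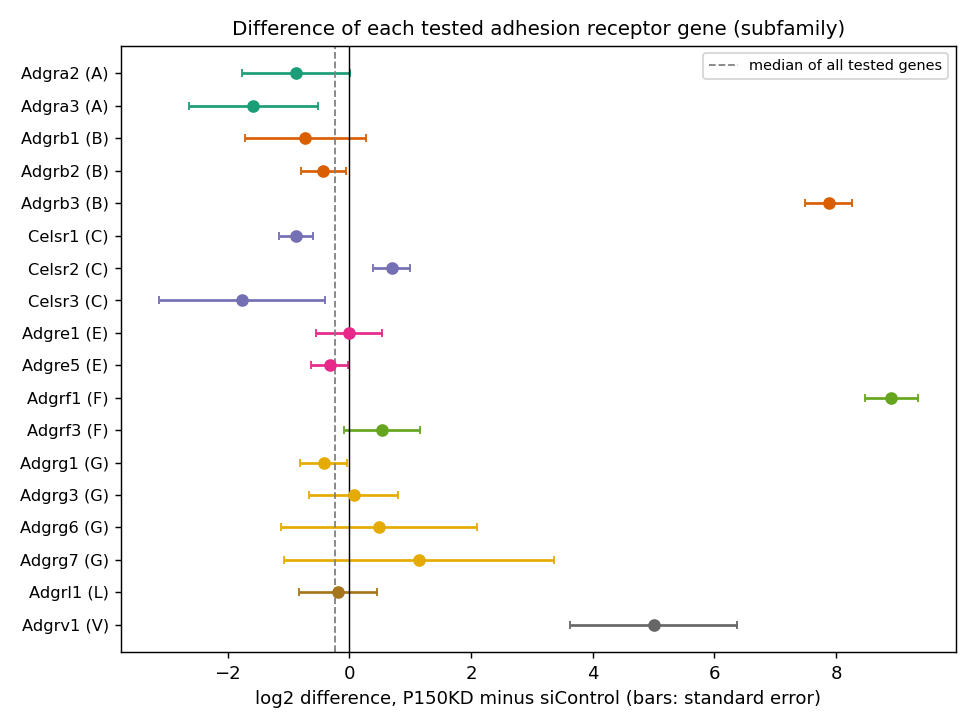
Points are log2 differences, P150KD minus siControl, of the 18 tested members with their standard error; the subfamily letter follows each name and the dashed line is the median of all tested genes, -0.24. Adgrf1 (8.91) and Adgrb3 (7.88) lie far to the right, Adgrv1 (5.00) has a wide error, and the other members lie between -1.76 and 1.14.

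Adgrf1 encodes a receptor for synaptamide, an ethanolamide of docosahexaenoic acid that promotes neurite growth. Its log2 signal was -7.38, -7.56 and -7.32 on the siControl arrays and 0.94, 0.46, 2.05, 2.30 and 1.69 on the P150KD arrays. It was at background on all 3 control arrays and well above it on all 5 knockdown arrays, with no overlap. Before scaling, the processed intensity was between 5.13 and 6.92 in siControl and between 1466 and 5299 in P150KD. Taking for each control array the dimmest signal still flagged as well above background, Adgrf1 was at least 99.4-fold higher in P150KD. The fitted log2 difference was 8.91 (SE 0.43), which depends on readings at background and is not a measured fold.

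Adgrb3 encodes a receptor of the brain angiogenesis inhibitor subfamily that binds C1q-like proteins and takes part in synapse formation. Its log2 signal was -7.09, -7.28 and -7.00 in siControl and -0.24, 0.37, 1.24, 1.21 and 1.18 in P150KD. As for Adgrf1, all control arrays were at background, all knockdown arrays were above it, and the P150KD arrays numbered 1 and 2 were the lowest of the 5. Adgrb3 was at least 59.8-fold higher in P150KD by the same bound, and the fitted difference was 7.88 (SE 0.38). The pattern of background in every control and signal in every knockdown array was shown by 100 tested genes in all.

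All arrays lay on 1 slide, where the first column held the 3 controls and P150KD 1 and the second column held P150KD 2 to 5. Within the first column, which is also what the fit with the column as a block estimates, Adgrf1 differed by 8.36 and Adgrb3 by 6.89. Leaving out each array in turn gave 8.70 to 9.16 for Adgrf1 and 7.76 to 8.13 for Adgrb3. These values describe the spread over the arrays and, since the controls were at background, are not measured folds. With background correction by normexp in place of the processed signal, the smallest difference over the alternatives was 5.33 for Adgrf1 and 4.49 for Adgrb3.

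Markers of other cell types moved with the groups in part. Of 12 neuron markers, 6 were tested and 0 rose or fell, and Stmn2 and Slc17a7 were at background on all arrays. The differences were negative for Snap25 (-0.32), Syp (-0.53), Tubb3 (-0.19) and Map2 (-1.41) and positive for Nefm (1.54) and Nefl (3.63). Their median was -0.26, beside -0.24 for all tested genes. Nefl, a neurofilament gene, was above background on 0 control and 4 P150KD arrays (limma adjusted p = 0.0803). It passed the filter on dim probes through the P150KD arrays alone. The summed linear signal of the neuron list, in units of each array's 75th percentile, was 9.66 to 16.2 in siControl and 6.87 to 12.2 in P150KD. Of 15 leukocyte markers, 9 were tested, and 4 rose and 0 fell, beside 6.65% and 10.5% of all tested genes. Fcgr3 rose by 4.03, Coro1a by 2.67, Cd74 by 2.31 and Srgn by 1.97 (limma adjusted p from 0.000757 to 0.0417). The median difference of the 9 was 1.44, beside -0.24 for all tested genes. With the slide column as a block 1 of the 9 passed, Fcgr3. In that fit 442 of 30348 probes rose and 271 fell, beside 1907 and 2324 in the main fit. The Coro1a call was also lost without siControl 2 (limma adjusted p = 0.0519) or siControl 3 (0.0545). That of Srgn was lost on leaving out any array but P150KD 3 (up to 0.125). Rises over all probes numbered 1016 to 1770 when 1 array was left out. Csf1r (-0.64), Itgam (-0.35), Fcer1g (-0.29) and Mpeg1 (-0.94), above background on all 8 arrays, and Aif1 (1.44) did not pass. The summed signal of the list was 5.52 to 17.1 in siControl and 12.0 to 18.0 in P150KD, and the defining genes Ptprc, Lyz2, Tyrobp and Laptm5 were at background on all arrays. Of 12 cumulus and granulosa markers 3 were tested and of 9 sperm markers 5, with 0 calls in either list in the main fit. The median differences of the 2 lists were 0.17 and 2.35, beside -0.24 for all tested genes. With the slide column as a block they were -0.03 and -0.06. The summed signals of the 2 lists were 6.55 to 8.50 and 0.23 to 0.31 in siControl and 8.06 to 15.8 and 0.40 to 2.03 in P150KD. The part of these markers in the signals of Adgrf1 and Adgrb3 was not tested.

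**Figure D3:**
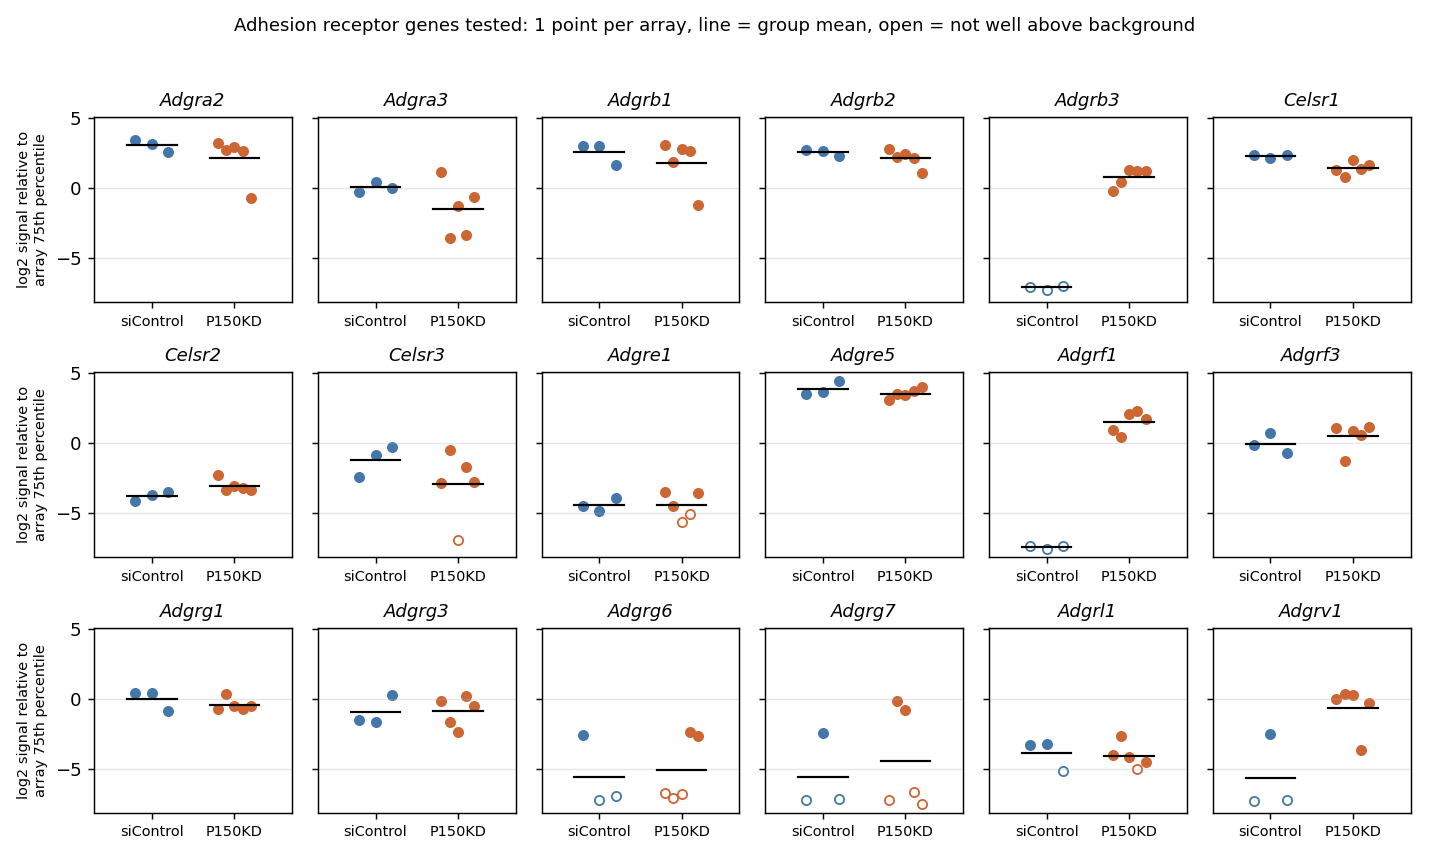
Log2 signal relative to the array's 75th percentile for the 18 tested members, 1 point per array (3 siControl, blue; 5 P150KD, orange), with a line at the group mean and open points where the probe was not well above background. Adgrf1 and Adgrb3 have open points near -7 in siControl and filled points from -0.24 to 2.30 in P150KD, and in most other panels the groups overlap.

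The neighbouring genes were read to see whether signal rose along the chromosome. Adgrf1 lies on chromosome 17 in a run that also holds Adgrf2 and Adgrf5, of the same subfamily. Adgrf5 was at background throughout and Adgrf2 was above it only on siControl 3. Between Adgrf2 and Adgrf1, Cd2ap, an adaptor of the actin cytoskeleton, differed by -0.12 (SE 0.16, adjusted p = 0.650). Tnfrsf21, which encodes a death receptor of the tumour necrosis factor receptor family and is the nearest neighbour on that side, rose from -3.24 ± 1.68 (SD, n = 3) to -0.41 ± 0.47 (SD, n = 5), a difference of 2.83 (SE 0.69, limma adjusted p = 0.0360). It was above background on 2 control and 5 P150KD arrays, and without siControl 3 the difference was 1.89 (limma adjusted p = 0.0416). The Tnfrsf21 call was lost without any single P150KD array or without siControl 1 (adjusted p up to 0.0797), and in the fit blocked on the slide column (3.15, adjusted p = 0.226). Rises over all probes numbered 1016 to 1770 in the leave-outs and 442 with the column block, beside 1907 in the main fit. On the other side, Mep1a was above background on 0 control and 2 P150KD arrays, and Ankrd66 on none.

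Around Adgrb3, on chromosome 1, no neighbour passed. Lmbrd1, which serves lysosomal cobalamin export, differed by -0.01 (SE 0.69, adjusted p = 0.996), and Phf3 by -0.29 (SE 0.17, adjusted p = 0.301). Col19a1 was above background on 1 P150KD array, 4931408C20Rik and Gm597 were at background on all arrays, and Gm20172 had no probe. Of the 12 nearest genes of both receptors, 4 could be tested (Cd2ap, Tnfrsf21, Lmbrd1 and Phf3), and Tnfrsf21 passed, beside 6.65% of all tested genes that rose.

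**Figure D4:**
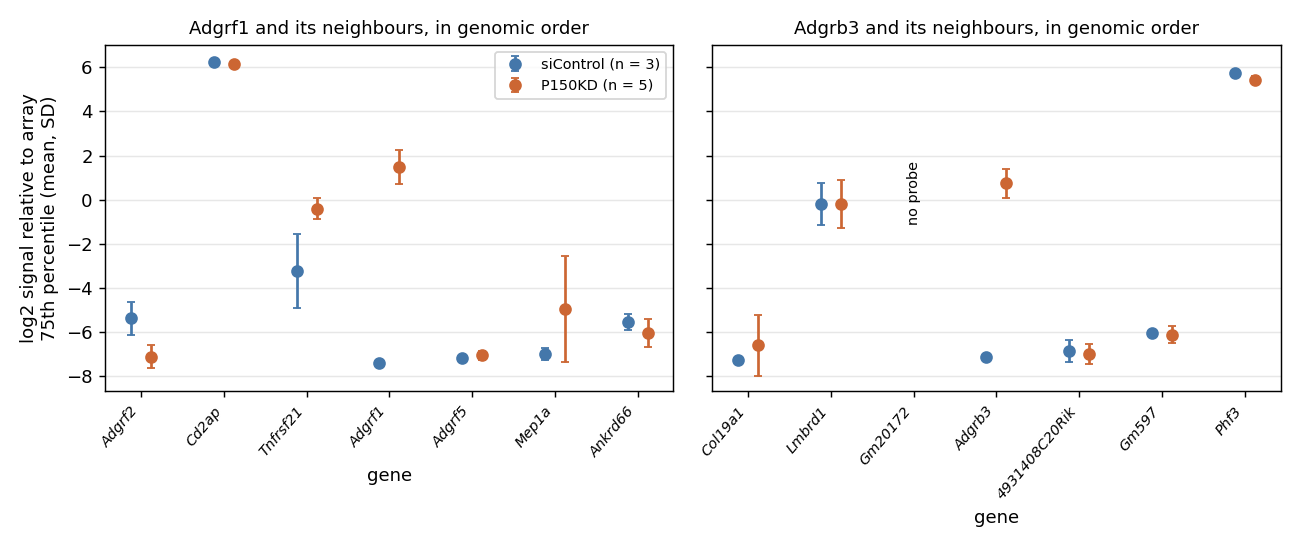
Group mean and SD of the log2 signal for Adgrf1 and Adgrb3 and the 3 nearest protein-coding genes on each side, in genomic order; siControl (n = 3) is blue and P150KD (n = 5) orange, and values near -7 are at background. Beside Adgrf1, Tnfrsf21 is the neighbour with separate group means and a passed test, and beside Adgrb3 no neighbour passed.

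The other members of subfamily B did not follow Adgrb3. Adgrb1 encodes a receptor that recognises phosphatidylserine on dying cells and promotes their uptake. It read 2.96, 2.95 and 1.63 in siControl and 3.04, 1.80, 2.73, 2.65 and -1.27 in P150KD, a difference of -0.72 (SE 1.00, adjusted p = 0.659). Its second probe differed by -0.29 (SE 0.26, adjusted p = 0.486). Adgrb2 read 2.72, 2.63 and 2.25 against 2.76, 2.16, 2.38, 2.15 and 1.07, a difference of -0.43 (SE 0.37, adjusted p = 0.478), and its second probe was above background on P150KD 5 alone, at -1.64. The groups overlapped in both genes, and P150KD 5 was the lowest array in each.

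Subfamily A showed a like spread. Adgra2, which acts with Reck as a co-receptor for Wnt7 proteins in brain vessels, read 3.37, 3.14 and 2.53 in siControl and 3.21, 2.67, 2.93, 2.60 and -0.71 in P150KD. Its difference was -0.87 (SE 0.88, adjusted p = 0.542). Adgra3 read -0.29, 0.39 and -0.03 against 1.11, -3.57, -1.30, -3.36 and -0.65, a difference of -1.58 (SE 1.06, adjusted p = 0.352). For Adgra3, P150KD 1 was above all controls and the other 4 knockdown arrays were below them. Within the first slide column the difference of Adgra3 was therefore 1.08. Adgra2, Adgrb1 and Adgrb2 shared their order over the arrays in part: in each, siControl 3 was the lowest control, P150KD 1 the highest knockdown array and P150KD 5 the lowest.

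The 3 Celsr genes encode cadherins built into receptors of this family. Celsr1 read 2.32, 2.13 and 2.30 in siControl and 1.26, 0.73, 1.94, 1.35 and 1.60 in P150KD. All 5 knockdown arrays were below all 3 controls, yet the difference of -0.88 (SE 0.28) missed the threshold (adjusted p = 0.0765). It passed where only probes above background on all 8 arrays were tested (adjusted p = 0.0458), and under housekeeping scaling it was -0.13. Celsr2 had 2 tested probes that differed in sign. The one with values on all arrays read -4.15, -3.70 and -3.46 against -2.30, -3.33, -3.09, -3.24 and -3.38, a difference of 0.70 (SE 0.30, adjusted p = 0.169). The other read -5.06, -1.15 and -0.96 against -6.60, -7.38, -4.10, -2.85 and -7.22, a difference of -3.24 (SE 1.40, adjusted p = 0.166). No direction can therefore be given for Celsr2. Celsr3 read -2.45, -0.85 and -0.26 against -2.88, -0.46, -6.90, -1.70 and -2.80, a difference of -1.76 (SE 1.36, adjusted p = 0.421), with overlapping groups.

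Of 15 other planar cell polarity genes, 13 were tested, and 0 rose and 1 fell, beside 6.65% and 10.5% of all tested genes, and the median difference was -0.15 beside -0.24. Vangl1, a membrane protein of the core polarity complex, fell from 3.37 ± 0.26 (SD, n = 3) to 1.85 ± 0.32 (SD, n = 5), a difference of -1.52 (SE 0.24, limma adjusted p = 0.00927). Under housekeeping scaling it was -0.77 with an adjusted p of 0.0527. Its partners Vangl2 (0.12, adjusted p = 0.810), Prickle1 (-0.01, adjusted p = 0.995) and Fzd3 (0.07, adjusted p = 0.836), with which Celsr proteins work, did not pass.

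Adgrv1, the very large receptor of the links between hair-cell stereocilia that is mutated in Usher syndrome, came nearest to the threshold. It read -7.29, -2.54 and -7.23 in siControl and -0.06, 0.32, 0.28, -3.70 and -0.28 in P150KD. It was above background on 1 of 3 control arrays and on all 5 knockdown arrays, and P150KD 4 fell below siControl 2, so that the groups overlapped. The difference was 5.00 (SE 1.38, adjusted p = 0.0515), with adjusted p-values from 0.0229 to 0.271 over the alternatives. Without siControl 2 it was 6.57 (adjusted p = 0.0248) and without P150KD 4 it was 5.75 (adjusted p = 0.0339). Adgrv1 met the filter on dim probes through the P150KD arrays, where it was high, and without siControl 2 no remaining control was above background. Its p-values therefore support nothing beyond this description, and its differences are not measured folds. A second Adgrv1 probe was above background on P150KD 4 alone, at -3.03. The higher signal of the first probe on the other 4 knockdown arrays was thus not seen with the second.

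Subfamily E holds receptors best known from leukocytes. Adgre5, also called Cd97, binds the complement regulator Cd55; it read 3.52, 3.62 and 4.47 in siControl and 3.08, 3.49, 3.46, 3.69 and 4.0 in P150KD. The difference was -0.32 (SE 0.30, adjusted p = 0.504), and all 8 arrays were well above background. Adgre1, long used as a macrophage marker, read -4.51, -4.83 and -3.95 against -3.50, -4.49, -5.60, -5.08 and -3.54, a difference of -0.01 (SE 0.54, adjusted p = 0.995). It was close to background, and its second probe was above it on P150KD 5 alone, at -2.85. The 4 leukocyte markers that rose were therefore not joined by a called rise of Adgre1 or Adgre5, and Adgre4 was at background.

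In subfamily F, Adgrf3, a receptor without an established ligand, read -0.14, 0.69 and -0.71 in siControl and 1.11, -1.29, 0.85, 0.57 and 1.18 in P150KD. The difference was 0.54 (SE 0.62, adjusted p = 0.598), with P150KD 2 the lowest of all arrays. Besides Adgrf1, it was the only gene of the subfamily that could be tested, since Adgrf2 was above background on 1 array and Adgrf4 and Adgrf5 on none.

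Of the 7 genes of subfamily G, 4 were tested and 0 passed. Adgrg1, which binds collagen III and guides cortical development, read 0.40, 0.39 and -0.86 in siControl and -0.76, 0.31, -0.52, -0.71 and -0.53 in P150KD, a difference of -0.42 (SE 0.38, adjusted p = 0.496). Adgrg3 read -1.56, -1.69 and 0.29 against -0.17, -1.70, -2.41, 0.20 and -0.50, a difference of 0.07 (SE 0.73, adjusted p = 0.958). Both were above background throughout with overlapping groups. Adgrg6, needed for myelination by Schwann cells, switched between background and signal within each group: it was above background on siControl 1 (-2.62), P150KD 4 (-2.35) and P150KD 5 (-2.65). Adgrg7 did likewise on siControl 2 (-2.43), P150KD 2 (-0.16) and P150KD 3 (-0.83). Their differences of 0.49 (SE 1.61, adjusted p = 0.863) and 1.14 (SE 2.22, adjusted p = 0.762) had errors larger than themselves.

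Of the latrophilins, which bind teneurins and Flrt proteins of facing cells, Adgrl1 alone was tested. It read -3.32, -3.21 and -5.15 in siControl and -4.06, -2.65, -4.18, -5.01 and -4.51 in P150KD, a difference of -0.19 (SE 0.64, adjusted p = 0.866). It was above background on 2 control and 4 knockdown arrays, and its second probe on none.

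Genes for known ligands and binding partners of the family were read next, from a list of 33, of which 20 were tested. None rose and 4 fell, beside 6.65% and 10.5% of all tested genes, and the median difference was -0.50 beside -0.24 for all genes. Cd55b fell by 1.99 (SE 0.40, adjusted p = 0.0195) and Cd55, the partner of Adgre5, by 1.04 (SE 0.28, adjusted p = 0.0499). Wnt7b, whose product signals through Adgra2 and Reck, fell by 2.44 (SE 0.50, adjusted p = 0.0202), and Col4a1, a collagen IV chain that binds Adgrg6, by 1.83 (SE 0.41, adjusted p = 0.0271). These 4 genes were above background on all 8 arrays. Under housekeeping scaling, whose reference genes were in part lower in P150KD, none of the 4 passed. Their differences were then -1.24, -0.30, -1.69 and -1.08, with limma adjusted p-values from 0.0529 to 0.467. Leaving out any 1 control array ended all 4 calls (limma adjusted p up to 0.150), and leaving out any 1 knockdown array ended that of Cd55. Falls over all probes then numbered 690 to 968 without a control array and 1485 to 1979 without a knockdown array, beside 2324 in the main fit. The Col4a1 call also ended without P150KD 2 or P150KD 3 (limma adjusted p = 0.0513 and 0.0566). The slide column as a block ended the calls of Cd55 (0.270) and Cd55b (0.107), in a fit where 271 of 30348 probes fell.

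Other genes of the list include the C1q-like ligands of Adgrb3 and partners of Adgra2, Adgrg1, Adgrg6 and the latrophilins. C1ql4 differed by -0.07 (SE 0.92, adjusted p = 0.965), C1ql1 and C1ql3 were above background on 2 arrays each, and C1ql2 on none. Reck differed by 1.89 (SE 1.52, adjusted p = 0.438), Col4a2 by -1.0 (SE 0.42, adjusted p = 0.156) and the teneurin gene Tenm4 by -0.48 (SE 0.25, adjusted p = 0.248). Col3a1, the collagen bound by Adgrg1, was above background on 2 P150KD arrays. Of the 4 C1q-like genes, C1ql4 alone could thus be tested.

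Of 45 genes for G proteins and effectors, 35 were tested, 1 rose and 3 fell, beside 6.65% and 10.5% of all tested genes, and the median difference was -0.35 beside -0.24. The shares in the list were no higher than those of all genes in rises and in falls. Gna13, a G protein subunit to which many adhesion receptors couple, fell from 4.68 ± 0.14 (SD, n = 3) to 3.16 ± 0.46 (SD, n = 5), by 1.52 (SE 0.28, adjusted p = 0.0157). Gnai2, an inhibitory subunit, fell by 1.74 (SE 0.34, adjusted p = 0.0185) and Plcb3, a phospholipase C, by 1.21 (SE 0.31, adjusted p = 0.0399). Adcy2, an adenylyl cyclase, was above background on 0 control and 4 P150KD arrays and at least 4.74-fold higher in P150KD (adjusted p = 0.0489). It passed the filter on dim probes through the P150KD arrays alone, so its call supports nothing beyond that description. Gnas, the stimulatory subunit through which Adgrf1 raises cyclic AMP, differed by 0.26 (SE 0.20, adjusted p = 0.421), and Gnaq by -0.16 (SE 0.72, adjusted p = 0.901). Rac1 (-0.51, adjusted p = 0.0803) did not pass.

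The calls among these effectors were near the threshold. Under housekeeping scaling Gna13, Gnai2 and Plcb3 differed by -0.77, -0.99 and -0.47 and none passed (adjusted p from 0.0691 to 0.343), and 5 genes of the list, Adcy2 among them, rose. With the slide column as a block 0 of the 35 passed. In that fit 442 of 30348 probes rose and 271 fell, beside 1907 and 2324 in the main fit. The calls of Gna13 and Gnai2 were lost without siControl 1 (limma adjusted p = 0.0600 and 0.0751) and without siControl 2 (0.0564 and 0.0541). Over all probes, rises numbered 1016 to 1770 and falls 690 to 1979 in the 8 leave-outs, beside 1907 and 2324 in the main fit. With the mean of all its probes Gna13 differed by -0.84 (adjusted p = 0.0716). Those of Plcb3 and Adcy2 were lost in 7 of 8 leave-outs each, with adjusted p-values up to 0.132 and 0.135; the array that could be left out was P150KD 5 for Plcb3 and P150KD 2 for Adcy2.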

How the data were processed

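Per the file headers, the authors read 1-colour Agilent arrays with Feature Extraction 10.5.1, and the deposited processed signal (an intensity) had its background subtracted and was detrended but not scaled between arrays; median spot and background intensity and 0 or 1 flags (other values) were deposited with it. Per the labels, RNA of 10 embryos passed 2 rounds of linear amplification and equal mass was labelled, so levels are relative. The deposited series table holds log2 values; 99.79% of its differences between arrays lay within 0.01 of those of the log2 processed signals after 1 shift per array. Its values are centred on each probe's median, so it holds no level.

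Spots were averaged by probe (59305 spots, 55681 probes), put on the log2 scale and set relative to each array's 75th percentile, between 819 and 1304. Probes were named by matching RefSeq accessions to a RefSeq table of GRCm38.p6; 27235 matched and 1450 did not. The headers name build mm9, so no gene coordinates are given apart from the promoter windows, which are in GRCm38.p6. Probes well above background on at least 3 of 8 arrays (30348) were tested with limma 3.58.1 in R 4.3.3 (lmFit, eBayes, two-sided, no covariate, Benjamini-Hochberg over all tested probes, threshold 0.05). The tested probe with the highest mean stood for its gene. An "at least" fold uses, for a group at background, the lowest signal well above background on each array. The procedure was tested on simulated data. All members are named, as are the 3 nearest protein-coding genes on each side of a called member. From other lists, genes past the threshold (at most 4) are named. Of the listed genes that bind a described member, some are named and others, tested ones among them, are not. Rac1, Gnas, Gnaq, Vangl2, Prickle1, Fzd3, Nefl, Csf1r, Itgam, Fcer1g, Mpeg1, Aif1 and Tenm4 were named after their values were seen. So were the neuron markers Snap25, Syp, Tubb3, Map2 and Nefm. The members, lists and tests were chosen with earlier results of these data known. The alternatives are given in the closing section; protein sequences were not analysed here.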

Additional observations from a re-analysis of the deposited data

Results flagged for a closer look

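Among the 20 tested probes of the family, 6 held a P150KD array that lay far from the other 4 by Dixon's 95% criterion, which chance meets in about 1 of 20 groups. P150KD 5 was low for Adgra2, at -0.71, and for Adgrb1, at -1.27. P150KD 2 was low for Adgrf3, at -1.29, and high for Adgrg1, at 0.31. P150KD 4 was low for Adgrv1, at -3.70, and P150KD 1 was high for Celsr2, at -2.30. The groups of 3 control arrays were too small for this criterion.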

How the results depend on the processing

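Over 19 alternatives, Adgrf1 and Adgrb3 kept their direction in each of the 18 that could test them, with ranges of 5.33 to 9.65 and 4.49 to 8.62; since the family was chosen on these 2 genes, this describes the values and supports nothing. Same-numbered arrays did not deviate together (correlations of -0.01, -0.07 and -0.02, beside -0.06 to 0.10 for other pairs). So few pairs could not show a modest shared batch, so whether the numbers pair the samples is not known. With the replicate block 0 of 30348 probes passed by limma (6371 at an unadjusted p under 0.05), 0 members rose, Adgrf1 was 8.57 and Adgrb3 7.58. P150KD 4 and P150KD 5 have no control of the same number, so this fit drew its differences from the other arrays alone. It left few degrees of freedom, and nothing is read from its lack of calls. With probes above background on all 8 arrays, where neither gene could be tested, 0 members rose, 1 fell (Celsr1) and the median of the members was -0.43. In that setting 1731 of 21422 probes rose and 3100 fell, and the median of all genes was -0.285. Scaling to housekeeping genes gave 4 rises, with Adgrv1 (5.75) and Celsr2 (1.44) added, and a median of 0.65. Under that scaling 6414 of 30348 probes rose and the median of all genes was 0.505, so nothing is read from the 4 rises. The column block gave a median of 0.38 for the members, beside -0.195 for all genes, and in it 442 of 30348 probes rose and 271 fell. Adgrv1, which met the filter through its P150KD arrays, also passed with trend and robust (5.00) and with normexp (2.71).

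Signs turned in members that passed nowhere. Under housekeeping scaling the values were Adgrl1 0.55, Adgrg1 0.32, Adgre5 0.42, Adgrb2 0.32, Adgrb1 0.022 and Adgre1 0.74. With the replicate block they were Adgrl1 0.26, Adgrg6 -1.25, Adgrg3 -0.44 and Adgrb1 0.012. With the column block they were Adgre1 0.94, Adgrg7 -1.58, Adgrg6 -1.11, Adgrb2 0.23, Adgra2 0.19, Adgra3 1.08 and Adgrb1 0.53. With the mean of all probes Celsr2, which passed under housekeeping scaling, was -1.27. Leaving out 1 array gave Adgrg3 -0.28 to 0.71, Adgre1 -0.24 to 0.28, Adgrl1 -0.82 to 0.15, Adgrg6 -0.32 to 1.99 and Adgrb1 -1.16 to 0.042. The cause was not tested.

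The alternatives for the genes outside the family other than the scaling, and the column block for their lists, were chosen after seeing the data. Signals near background limit what can be said of 8 tested members and of the 11 that were not tested.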
